A study of Rattus norvegicus with 50 samples.

Results

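Osteopontin, the product of the gene Spp1, was followed through the kidney cortex and medulla of lean and obese ZSF1 rats. It is 1 row, ENSRNOG00000043451, of the 32545 Ensembl gene IDs in the deposited table. The gene was chosen from measured values of these data, with results in view in which it had the highest log2 difference of 13579 genes tested between obese vehicle and lean vehicle cortex. That contrast is therefore given as a description, with no test. Which other values bore on the choice is not known, so no p-value below is independent of it. The table holds IDs without gene names, and the reference gene table used here lists no Ensembl IDs, so the pairing of this ID with rat Spp1 is taken as given and was not checked here.

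The tissue was sequenced as total RNA in 10 groups of 5 libraries, and each library was scaled by the authors to FPKM (fragments scaled by transcript length and by the library's mapped total). The obese groups received enalapril (Enalpril in the labels) at 10 mpk, MK-8722 at 1 mpk, MK-8722 at 10 mpk or vehicle, and the lean group received vehicle, each in cortex and in medulla. Doses are in the labels' own unit. All rats were of the ZSF1 strain, whose obese animals carry mutated leptin receptor genes and develop diabetes with progressive kidney disease. Treatment lasted 28 weeks, longer than the labelled age of 20 weeks, and that age was not used. The labels name no animal for a library, so the p-values reflect library-to-library spread, part of which may be technical. Defining markers of cortex and medulla were not checked, since no other ID could be given a name.

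Osteopontin is a secreted, acidic phosphoprotein of the SIBLING family, first known from bone. It binds integrins through an arginine-glycine-aspartate motif and also binds CD44. In the kidney it is made mainly by the thick ascending limb and other distal segments, is shed into urine where it slows the growth of calcium oxalate crystals, and is known to be produced more widely by injured tubules, where it attracts macrophages. MK-8722 activates the complexes of AMP-activated protein kinase, and enalapril inhibits angiotensin-converting enzyme. In whole tissue, more cells that make a transcript and more transcript per cell cannot be told apart.

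The promoter is shown because it is the only sequence of this gene in the sources used here. The 250 bases before the annotated start of Spp1 lie at chr14:5619805-5620054 of GRCr8 on the minus strand, from RefSeq, and are printed 5′ to 3′ along the gene. Capitals mark a TTTAAA and an ACCGCA.
Spp1 promoter: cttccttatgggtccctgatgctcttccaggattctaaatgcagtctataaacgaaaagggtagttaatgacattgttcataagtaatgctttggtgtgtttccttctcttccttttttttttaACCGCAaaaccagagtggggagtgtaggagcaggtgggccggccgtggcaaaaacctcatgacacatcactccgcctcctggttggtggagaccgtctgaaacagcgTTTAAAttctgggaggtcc
TTTAAA, a variant of the TATA box, began 19 bases before the start, and 12.3% of 33469 rat promoter windows of this length hold it on either strand. ACCGCA, a core bound by Runx factors, began 126 bases before the start and occurs in 5.02% of windows. TATAAA was found once, 204 bases before the start (12.9% of windows), as was the E-box CANNTG, 96 bases before it (65.5%). The AP-1 letters TGANTCA (6.34% of windows), TGACGTCA (1.59%), GGGCGG (30.5%) and CCAAT (34.0%) were not found on either strand. The expression values do not bear on which of these letters are used.

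Absolute depth is unknown for FPKM. Steps in the low values gave the relative depth of the libraries, which ranged from 0.596 to 1.52. With a tolerance of 0.1 reads 93.6% of 59052 low values fell on whole reads. Depth was fitted to these same values, so this share is no independent check. In cortex depth averaged 1.35 in lean vehicle, 1.02 in obese vehicle and 1.24 with enalapril. It averaged 1.06 there with MK-8722 1 mpk and 1.34 with 10 mpk. In medulla the same groups averaged 1.12, 0.724, 0.763, 0.79 and 0.865. Depth thus differed along with the group, and a fit that includes it cannot fully separate depth from group. Within a tissue, the libraries also differed by a shift shared by most genes, taken as the median over tested genes of the log2 deviation from the gene's mean. The shift ran from -0.20 to 0.29 in cortex and from -0.27 to 0.22 in medulla, and the lowest in each tissue was a lean library. In cortex, 8 of 25 libraries carried numbers in a separate higher range, of which 3 were MK-8722 10 mpk libraries, 2 lean ones and 1 in each other group. All medulla numbers lay in the lower range.

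Spp1 was among the most abundant transcripts of the obese kidney and a moderately abundant one in lean kidney. In obese vehicle rats it ranked between 12 and 23 among all IDs in cortex libraries and between 9 and 12 in medulla libraries. In lean vehicle rats it ranked between 845 and 1109 in cortex and between 135 and 219 in medulla. Its share of the summed FPKM of a library was 0.389% ± 0.184 in obese vehicle against 0.00528% ± 0.000644 in lean vehicle cortex (SD, n = 5 each). The share was 0.619% ± 0.164 in obese vehicle against 0.0266% ± 0.00465 in lean vehicle medulla (SD, n = 5 each).

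**Figure D1:**
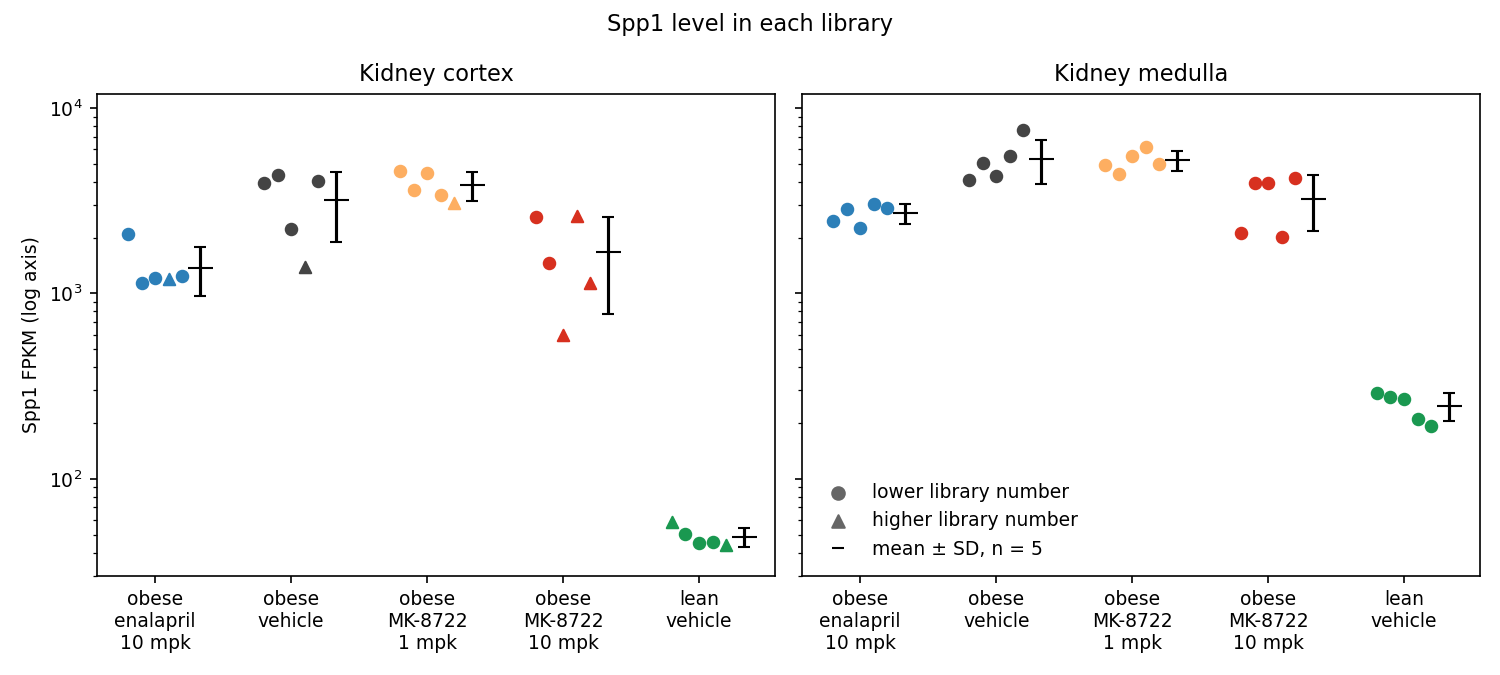
Spp1 FPKM on a log axis in every library of the 5 groups of cortex (left) and medulla (right); circles and triangles are libraries with numbers in the lower and higher range, and bars give the mean ± SD (n = 5). The lowest obese library has 595 FPKM and the highest lean library 290 FPKM.

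In cortex, obese vehicle libraries had far more Spp1 than lean ones. The obese vehicle libraries measured 3967, 4346, 2233, 1394 and 4049 FPKM, against 58.2, 50.7, 44.9, 45.6 and 44.2 FPKM in lean vehicle libraries. The groups did not overlap. The obese values fell into 3 between 3967 and 4346 and 2 lower ones, and the lowest came from the library numbered in the higher range. Means were 3198 ± 1305 and 48.7 ± 5.87 FPKM (SD, n = 5), a ratio of 65.7 and a log2 difference of 5.91. Of all genes tested in this comparison 61.1% were called at an adjusted p under 0.05, and the median log2 difference over all genes was 0.30. After each library was rescaled by its median ratio to the other libraries, the log2 difference was 5.56.

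Spp1 also rose in medulla. It measured 4097, 5058, 4302, 5519 and 7622 FPKM in obese vehicle libraries, against 290, 275, 271, 211 and 192 FPKM in lean vehicle libraries. No obese value came near a lean one. Means were 5319 ± 1409 and 248 ± 43.6 FPKM (SD, n = 5), with a ratio of 21.5 and a log2 fold change of 4.40 ± 0.19 (SE; limma, adjusted p = 3.98e-14). Of 14195 genes tested 67.7% were called in this comparison, so passing the threshold does not set Spp1 apart, while its log2 fold change was the 8th highest. The median log2 difference over all genes was 0.37. The log2 fold change of Spp1 was 4.004 after rescaling and 3.79 in a fit that included relative depth (limma, adjusted p = 8.49e-10). Relative depth did not overlap between these groups, at 0.986 to 1.18 in lean and 0.596 to 0.81 in obese vehicle libraries.

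On the log2 scale the lean level differed more between the tissues than the obese vehicle one. In FPKM the difference between the tissues was larger in obese vehicle. The log2 difference between obese and lean was 1.50 greater in cortex than in medulla, given with no test because it contains the cortex contrast (4.86% of 14586 genes were called for this interaction). In lean rats Spp1 was lower in cortex than in medulla, at 48.7 against 248 FPKM, with a log2 difference of -2.32 ± 0.28 (SE; limma, adjusted p = 3.4e-09; 39.9% of genes called). In obese vehicle rats it was 3198 in cortex against 5319 FPKM in medulla (log2 difference -0.82 ± 0.28, adjusted p = 0.0146; 46.6% of genes called). That last call was lost without cortex obese vehicle replicate 5 (log2 difference -0.55, adjusted p = 0.108) or medulla obese vehicle replicate 7 (adjusted p = 0.0592), with these groups fitted alone (0.0509), and in a fit that included relative depth (-0.18, adjusted p = 0.673). Relative depth averaged 1.02 ± 0.211 in cortex and 0.724 ± 0.0812 in medulla libraries of obese vehicle rats (SD, n = 5). Both tissue comparisons share cortex libraries with the contrast given with no test, so their p-values are not independent of the choice of gene.

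With enalapril Spp1 was lower than with obese vehicle in both tissues, though still far above lean. The cortex call was lost under several alternatives, given below. In medulla the enalapril libraries measured 2475, 2849, 2250, 3042 and 2899 FPKM, and each lay below every obese vehicle library, whose values are given above. The mean was 2703 ± 328 against 5319 ± 1409 FPKM (SD, n = 5), giving a log2 fold change of -0.95 ± 0.19 (SE; limma, adjusted p = 0.0153), where 10.6% of genes were called. Rescaling left -0.81 (adjusted p = 0.0228). The call was lost without enalapril replicate 5 (adjusted p = 0.0548) or obese vehicle replicate 7 (adjusted p = 0.0724).

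In cortex the enalapril libraries measured 2101, 1137, 1210, 1193 and 1245 FPKM. The first stood apart, and the other 4 lay close together and below all 5 obese vehicle libraries. The mean was 1377 ± 406 against 3198 ± 1305 FPKM (SD, n = 5), giving a log2 fold change of -1.13 ± 0.33 (SE; limma, adjusted p = 0.0335), where 14.4% of genes were called. This comparison shares its obese vehicle libraries with the contrast between obese and lean cortex. The call was lost without a filter on low values (adjusted p = 0.0517), with the compared groups fitted alone (0.0614), after rescaling (log2 fold change -0.94, adjusted p = 0.067), in a fit that included relative depth (-0.63, adjusted p = 0.358), and when enalapril replicate 2, 4, 6 or 7 was left out, or replicate 1, 2 or 6 of obese vehicle (0.0676 to 0.118). In libraries of the lower number range alone the log2 fold change was -1.36 (adjusted p = 0.00321). An exact two-sided permutation test of the log2 values gave p = 0.0159. Relative depth averaged 1.24 ± 0.166 with enalapril against 1.02 ± 0.211 in obese vehicle libraries (SD, n = 5).

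MK-8722 at 1 mpk gave no detectable change of Spp1. In cortex it measured 4589, 3630, 4481, 3412 and 3074 FPKM, within the range of the obese vehicle libraries but for the highest 2. The mean was 3837 ± 668 against 3198 ± 1305 FPKM (SD, n = 5), a log2 difference of 0.37 with a 95% interval of -0.32 to 1.06 (limma, adjusted p = 0.999). In medulla it measured 4939, 4440, 5554, 6162 and 5002 FPKM, all within the range of obese vehicle. The mean was 5219 ± 658 against 5319 ± 1409 FPKM (SD, n = 5), with a log2 difference of 0.000336 and an interval of -0.40 to 0.40. Limma called 0% of genes in either tissue, with 583 of 13579 genes in cortex and 577 of 14195 in medulla at an unadjusted p under 0.05. Neither count exceeds the share of 0.05 that genes without any difference would give. In libraries of the lower number range the cortex difference was 0.18.

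At 10 mpk of MK-8722 Spp1 was lower than with obese vehicle in both tissues, with calls that several alternatives ended. In medulla the libraries measured 2124, 3958, 3940, 2005 and 4218 FPKM. A pair lay near the lower end and 3 between 3940 and 4218, and the highest exceeded the lowest obese vehicle library. The mean was 3249 ± 1088 against 5319 ± 1409 FPKM (SD, n = 5), giving a log2 fold change of -0.75 ± 0.19 (SE; limma, adjusted p = 0.013; 18.1% of genes called). The call was lost after rescaling (-0.56, adjusted p = 0.0527), with the compared groups fitted alone (0.0825), with the replicate block (-0.70, adjusted p = 0.0545), in a fit that included relative depth (-0.50, adjusted p = 0.0851) and without obese vehicle replicate 7 (-0.61, adjusted p = 0.0528).

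In cortex the MK-8722 10 mpk libraries measured 2586, 1451, 595, 2628 and 1135 FPKM, the widest spread of the 10 groups relative to the mean, at 53.7%. Of these, 4 lay within the range of obese vehicle or just under it, and 1 far below. The mean was 1679 ± 901 against 3198 ± 1305 FPKM (SD, n = 5), giving a log2 fold change of -1.01 ± 0.33 (SE; limma, adjusted p = 0.031; 26.6% of genes called). This comparison also shares its obese vehicle libraries with the contrast between obese and lean cortex. An exact two-sided permutation test gave p = 0.0952. In a fit with a term for replicate number (the replicate block) over all 25 cortex libraries, the log2 fold change was -0.94 (adjusted p = 0.00222). The 3 numbers shared by these groups met the pairing check described below, but no other pair of cortex groups did. The groups hold different rats and the labels state no pairing, so this is not a paired result. The call was lost after rescaling (-0.80, adjusted p = 0.0797), with the compared groups fitted alone (0.154), with the number range as a term (-0.82, adjusted p = 0.0835), in the lower number range alone (-0.87, adjusted p = 0.076), and when MK-8722 replicate 4, 5 or 7 was left out, or replicate 1, 2 or 6 of obese vehicle (0.0568 to 0.115). In a fit that included relative depth, the log2 fold change was -0.32 (adjusted p = 0.706), and -0.65 (adjusted p = 0.244) with the replicate block in the same fit. Relative depth averaged 1.34 ± 0.193 in MK-8722 10 mpk libraries against 1.02 ± 0.211 in obese vehicle ones (SD, n = 5).

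**Figure D2:**
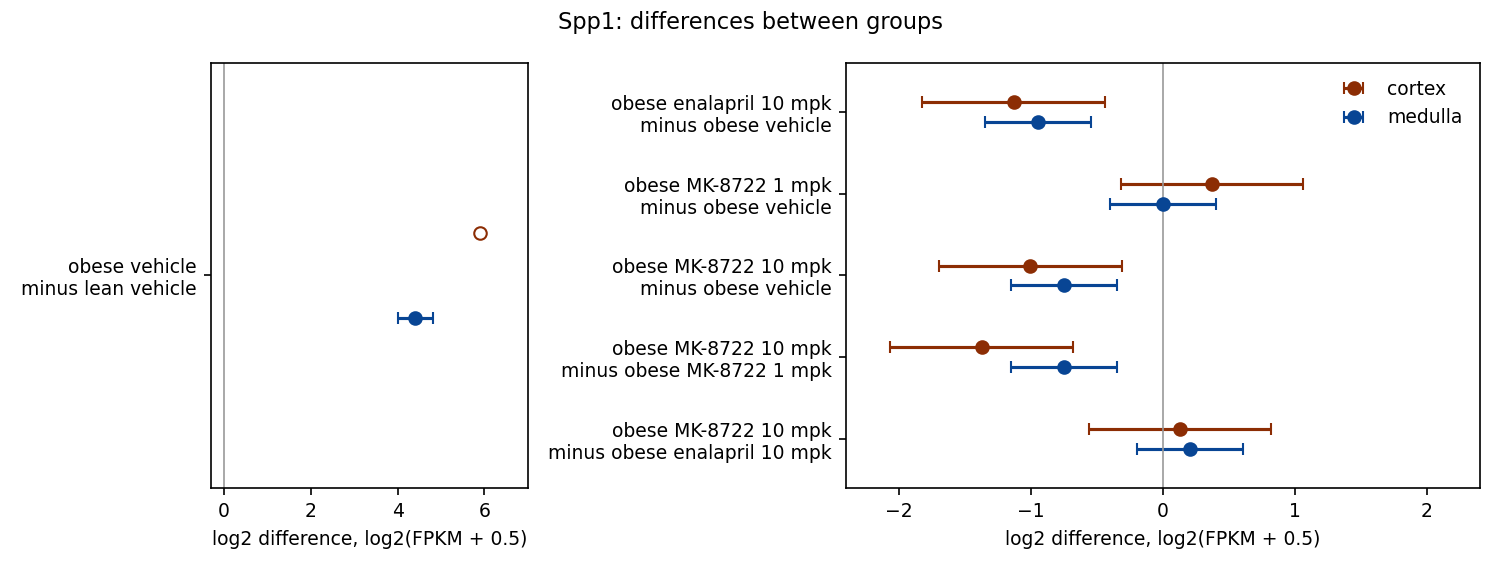
Log2 differences of Spp1 between groups in cortex and medulla on the log2(FPKM + 0.5) scale; bars are 95% intervals from limma (n = 5 per group), and the open point, for the contrast given with no test, has none. Intervals of enalapril and of MK-8722 10 mpk against obese vehicle lie below 0 in both tissues, and those of MK-8722 1 mpk span 0.

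Between the doses of MK-8722, Spp1 was lower at 10 mpk in both tissues. In cortex it was 1679 ± 901 FPKM at 10 mpk against 3837 ± 668 FPKM at 1 mpk (SD, n = 5), and the values given above did not overlap. The log2 fold change was -1.37 ± 0.33 (SE; limma, adjusted p = 0.00686), where 30.2% of genes were called. It was -1.16 after rescaling (adjusted p = 0.0111) and stayed past the threshold whichever library was left out (adjusted p of 0.00212 to 0.0249). In a fit that included relative depth, it was -0.81 (adjusted p = 0.158), and in the lower number range, with 2 libraries at 10 mpk, -1.04 (adjusted p = 0.0565).

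In medulla Spp1 was 3249 ± 1088 FPKM at 10 mpk against 5219 ± 658 FPKM at 1 mpk (SD, n = 5), again without overlap. The log2 fold change was -0.75 ± 0.19 (SE; limma, adjusted p = 0.0286), where 5.92% of genes were called, and -0.62 after rescaling (adjusted p = 0.0474). The call was lost with the compared groups fitted alone (adjusted p = 0.121), with the replicate block (-0.68, adjusted p = 0.126), and without MK-8722 10 mpk replicate 1 or 5 or MK-8722 1 mpk replicate 4, 6 or 7 (adjusted p of 0.0522 to 0.103).

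Spp1 did not differ detectably between MK-8722 10 mpk and enalapril. Means were 1679 FPKM with MK-8722 and 1377 FPKM with enalapril in cortex, a log2 difference of 0.13 with a 95% interval of -0.56 to 0.82 (limma, adjusted p = 0.883; 9.63% of genes called). In medulla they were 3249 FPKM with MK-8722 and 2703 FPKM with enalapril, a difference of 0.20 with an interval of -0.20 to 0.60 (adjusted p = 0.704; 2.73% of genes called). These intervals do not show that the drugs act alike on this gene.

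No drug brought Spp1 near the lean level. In cortex the ratio of means to lean vehicle was 28.3 with enalapril (25.1% of genes called), 78.8 with MK-8722 1 mpk (64.7%) and 34.5 with MK-8722 10 mpk (38.3%), with log2 fold changes of 4.77, 6.28 and 4.90 (limma, adjusted p of 3.43e-09, 1.11e-11 and 1.01e-09). These cortex comparisons share their lean vehicle libraries with the contrast given with no test, so their p-values are not independent of the choice of gene. In medulla the ratios were 10.9 with enalapril (46.9%), 21.1 with MK-8722 1 mpk (63.9%) and 13.1 with MK-8722 10 mpk (47.7%), with log2 fold changes of 3.45, 4.40 and 3.65 (adjusted p of 1.02e-11, 4.76e-14 and 1.68e-12). Set on the line from lean at 0% to obese vehicle at 100%, the mean FPKM with enalapril stood at 42.2% in cortex and 48.4% in medulla. With MK-8722 10 mpk it stood at 51.8% in cortex and 59.2% in medulla. On the log2 scale the same groups stood at 80.8% and 78.5% with enalapril and at 83.0% in both tissues with MK-8722 10 mpk, which shows how much this position depends on the scale.

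Enalapril and MK-8722 10 mpk groups kept the tissue order of the vehicle groups. Spp1 was lower in cortex than in medulla with enalapril (log2 difference -1.01 ± 0.28 SE, limma, adjusted p = 0.00272; 51.6% of genes called) and with MK-8722 10 mpk (-1.08 ± 0.28, adjusted p = 0.00147; 47.4% called). In a fit that included relative depth, these were -0.066 (adjusted p = 0.919) and -0.24 (adjusted p = 0.654), and cortex libraries were the deeper ones. With the compared groups fitted alone, MK-8722 10 mpk had an adjusted p of 0.05004. With MK-8722 1 mpk the tissue difference was -0.45, with a 95% interval of -1.02 to 0.11 (adjusted p = 0.218; 32.7% called), while an exact permutation test of these 2 groups gave p = 0.0238.

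The effects of the drugs on Spp1 were not shown to differ between the tissues. The cortex effect minus the medulla effect was -0.18 for enalapril against obese vehicle, with a 95% interval of -0.98 to 0.61 (limma, adjusted p = 0.999; 0.00686% of genes called). It was 0.37 for MK-8722 1 mpk, with an interval of -0.43 to 1.17. Limma called 0% of genes for this interaction, with 400 of 14586 at an unadjusted p under 0.05, no more than a share of 0.05. For MK-8722 10 mpk the cortex effect minus the medulla effect was -0.26, with an interval of -1.05 to 0.54 (0.226% called). For 10 mpk against 1 mpk it was -0.63, with an interval of -1.42 to 0.17 (adjusted p = 0.59; 0.13% called), and for MK-8722 10 mpk against enalapril -0.07 (adjusted p = 0.996; 0.13% called).

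Ordered by mean level, medulla obese vehicle came first, followed by medulla MK-8722 1 mpk, cortex MK-8722 1 mpk, medulla MK-8722 10 mpk, cortex obese vehicle, medulla enalapril, cortex MK-8722 10 mpk, cortex enalapril, medulla lean vehicle and cortex lean vehicle. Neighbours in this order differed by more than the larger of their SDs at 4 of 9 steps. These were the steps from medulla to cortex MK-8722 1 mpk, from medulla enalapril to cortex MK-8722 10 mpk, from cortex enalapril to medulla lean vehicle, and between the lean groups. Only at the last 2 of these did the libraries of neighbouring groups not overlap.

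Within groups, Spp1 moved with the library shift. Measured as deviations from the group mean, Spp1 and the shift had the same sign in 40 of 50 libraries. The library with the lowest Spp1 also had the lowest shift in 8 of the 10 groups, and the library with the highest Spp1 the highest shift in 6. The libraries highest in Spp1 and in shift differed in both lean groups and in both MK-8722 10 mpk groups. Those lowest in each differed in lean cortex and in cortex enalapril. In lean cortex the library highest in Spp1, at 58.2 FPKM, had the lowest shift, at -0.204. In lean medulla the library highest in Spp1, at 290 FPKM, had a shift of -0.249 within a range of -0.271 to -0.161. In cortex the obese vehicle library of 1394 FPKM had a shift of -0.02, and the 3 between 3967 and 4346 FPKM had shifts of 0.19 to 0.29. The cortex MK-8722 10 mpk library of 595 FPKM had a shift of -0.19, within the range of lean cortex libraries, at -0.20 to -0.16. Rescaling removes the shift, and the spread it left in Spp1 was 962 FPKM around a mean of 2790 FPKM in cortex obese vehicle and 781 around 1674 FPKM in cortex MK-8722 10 mpk (SD, n = 5). The part of the shift in the differences between groups was not tested beyond the rescaled values.

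**Figure D3:**
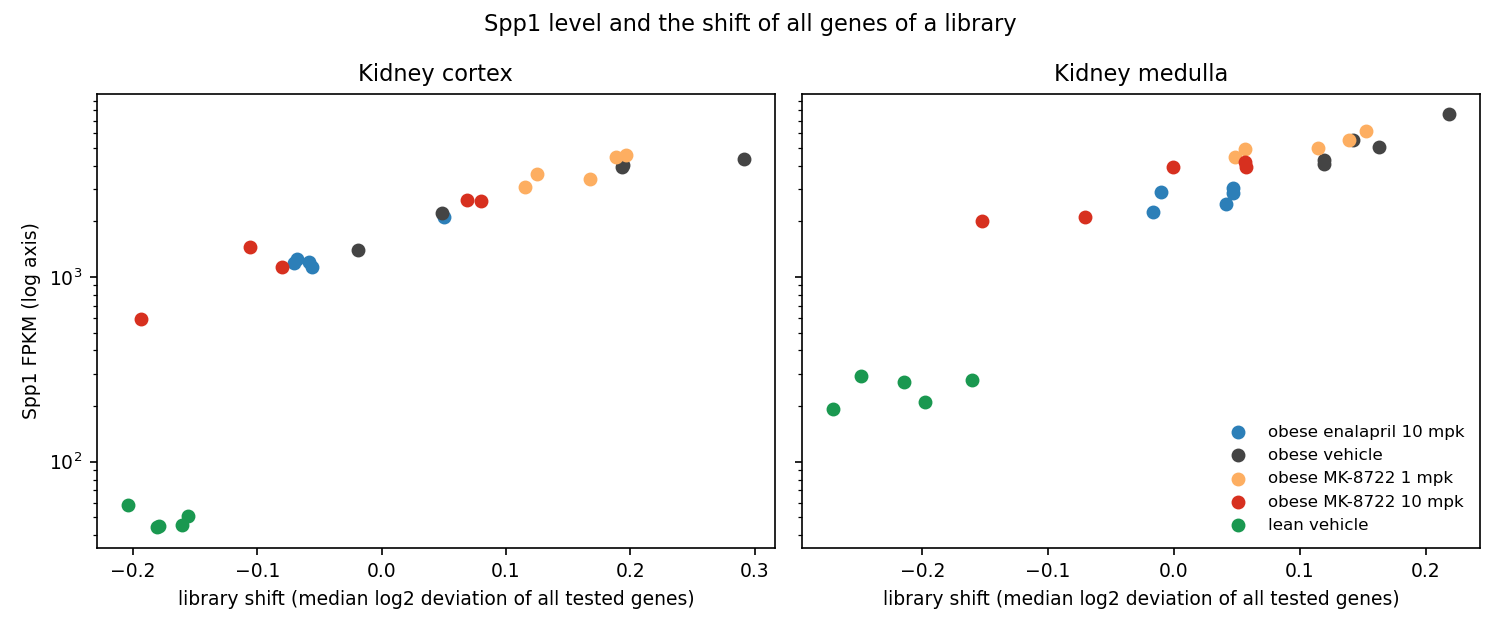
Spp1 FPKM on a log axis against the library shift, the median log2 deviation of all tested genes from their means over the tissue, for the 25 cortex and 25 medulla libraries coloured by group. Among obese libraries both run together, from the cortex MK-8722 10 mpk library at -0.19 and 595 FPKM to the cortex obese vehicle library at 0.29 and 4346 FPKM, and lean libraries lie apart.

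Other gene IDs followed Spp1 closely. Over the 50 libraries, Pearson's r of log2(FPKM + 0.5) with Spp1 was above 0.9 for 4.17% of 13215 IDs with a mean FPKM of at least 1, and its median over these IDs was 0.51. Lean and obese libraries form separate clusters, which sets much of this r. The likeness is given as a description over libraries that share depth and shift, with no p. The IDs named below were chosen by this r, so their group means follow or oppose those of Spp1 by that choice. The most alike were ENSRNOG00000000443 (r = 0.986) and ENSRNOG00000006094 (r = 0.985). Over the 40 obese libraries alone r was 0.943 for ENSRNOG00000000443 and 0.973 for ENSRNOG00000006094, and over deviations from the group means 0.871 and 0.912. ENSRNOG00000006094 averaged 42.7 ± 14.8 FPKM in obese vehicle against 4.16 ± 1.13 FPKM in lean vehicle cortex, and 22.6 ± 5.43 FPKM with enalapril and 27.5 ± 11.3 FPKM with MK-8722 10 mpk (SD, n = 5).

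The IDs most opposite to Spp1 were ENSRNOG00000012273 (r = -0.914) and ENSRNOG00000057501 (r = -0.875). ENSRNOG00000012273 averaged 39.4 ± 5.17 FPKM in obese vehicle against 65.5 ± 4.83 FPKM in lean vehicle cortex (SD, n = 5). Over deviations from the group means its r was -0.54. For ENSRNOG00000057501, r was -0.45 over the obese libraries, so its likeness rested mostly on the difference between lean and obese. Over deviations from the group means, r with Spp1 was above 0.9 for 31 IDs, or 0.235% of 13215, and its median over these 13215 IDs was 0.34. Over the same deviations Spp1 had an r of 0.89 with the library shift. The part of the shift in these r was not tested.

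**Figure D4:**
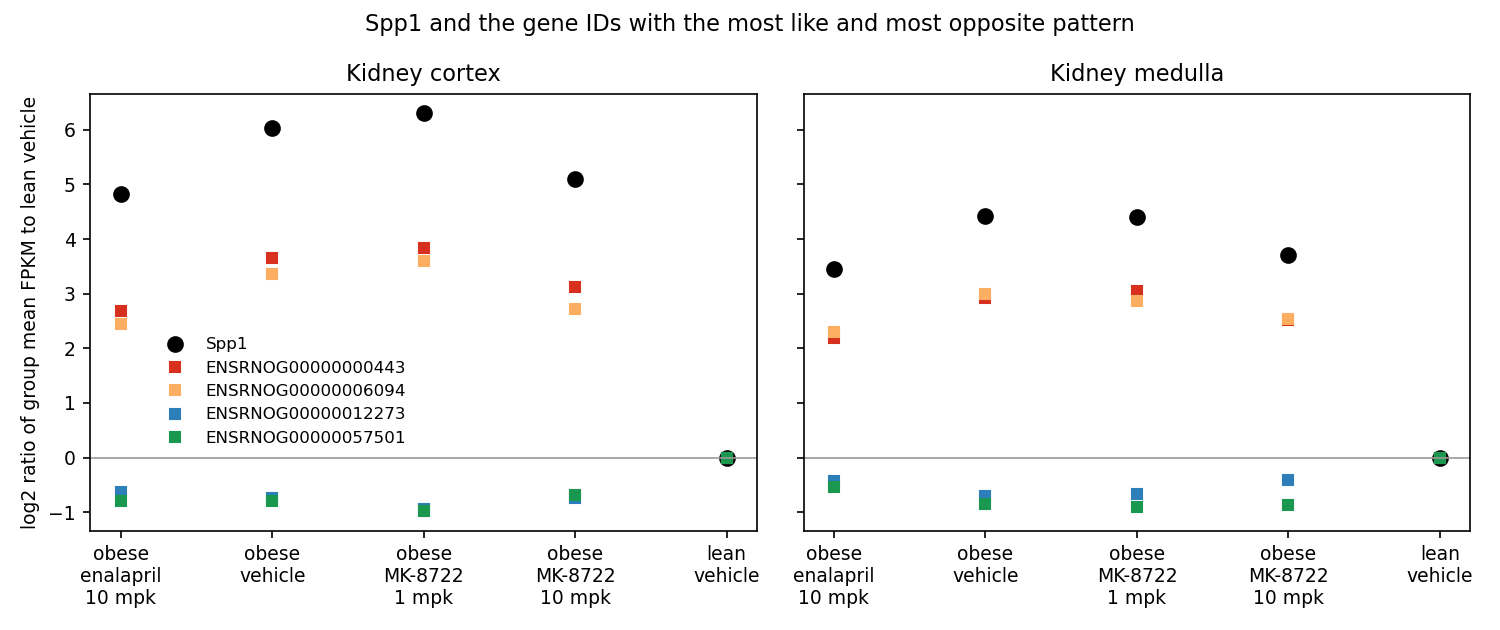
Log2 ratio of the group mean FPKM to lean vehicle of the same tissue, for Spp1 (black circles) and the 2 most alike and 2 most opposite IDs (squares), in the 5 groups of cortex (left) and medulla (right). The alike IDs are lower with enalapril and MK-8722 10 mpk than with obese vehicle, as Spp1 is, over a smaller range than Spp1. The IDs were chosen by their r with Spp1 over these same libraries, so the shared direction follows from the choice.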

How the data were processed

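The authors deposited FPKM values for 50 stranded total RNA libraries made after ribosomal RNA removal, per the labels' protocols, from 1 ug of RNA each. The build, annotation, aligner and counting tool were not given in the sources used here. Columns carry library numbers, which tie each to 1 sample description.

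Tests were run on log2(FPKM + 0.5) with limma 3.58.1 in R 4.3.3 (trend, robust) on genes that reached an FPKM of 1 in at least 5 libraries, so fold changes understate low genes. Each tissue was fitted on its 25 libraries, and tissue differences and interactions on all 50. P-values are two-sided, adjusted by Benjamini-Hochberg over all genes tested, and 27 comparisons of Spp1 were tested. For 5 against 5 libraries the smallest exact permutation p is 0.00794. The procedure was tested on simulated data, with genes drawn independently and the same spread in all groups. Those data lacked the shift shared by most genes, so that run cannot vouch for calls in these libraries.

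The gene, lists and tests were chosen with earlier results of these data known, and the promoter motifs with the sequence in view. The 18 gene and marker lists were not used, since 0 IDs matched a symbol in the reference table. Named IDs are the 2 highest and 2 lowest by r with Spp1, since at most 2 unnamed IDs per direction were taken.

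Replicate numbers recur across groups, and the labels state no pairing. Whether same-numbered libraries deviate together from their group means was checked by r across genes. All 3 pairs exceeded 0.1 for cortex MK-8722 10 mpk and obese vehicle (0.22 to 0.37) and for MK-8722 10 mpk cortex and medulla (0.1 to 0.31). No other comparison of groups met this check. Only between tissues of the same group could a shared number mean the same rat. There r was 0.0053 to 0.085 in lean vehicle and 0.073 to 0.22 in obese vehicle. It was -0.007 to 0.091 with enalapril and -0.016 to 0.23 with MK-8722 1 mpk. The check therefore does not establish that libraries are paired.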

Additional observations from a re-analysis of the deposited data

Results flagged for a closer look

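The Spp1 level of enalapril replicate 1 in cortex, at 2101 FPKM, lay apart from the other 4 enalapril libraries, of which the nearest had 1245 FPKM. The gap was 0.888 of the group's range, against a critical value of 0.71 for 5 samples (Dixon's test at the 95% level). It was the 1 library marked among the 10 groups, and chance marks about 1 in 20 groups. Without it the log2 fold change of enalapril against obese vehicle in cortex was -1.29 (limma, adjusted p = 0.0186).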

How the results depend on the processing

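Of the 27 tested comparisons of Spp1, those with lean vehicle and the lean cortex and medulla difference stayed past the threshold under every alternative run. The cortex ones and the lean tissue difference share lean cortex libraries with the contrast given with no test. Values are log2 differences, with limma's adjusted p in parentheses.

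Relative depth in the fit gave, in cortex, 5.17 for obese against lean vehicle (no test), -0.63 for enalapril (0.358) and -0.32 for MK-8722 10 mpk (0.706) against obese vehicle, and -0.81 for 10 against 1 mpk (0.158). In medulla it gave 3.79 (8.49e-10) for obese against lean vehicle and -0.50 (0.0851) for MK-8722 10 mpk against obese vehicle. For cortex against medulla it gave -0.18 in obese vehicle (0.673), -0.066 with enalapril (0.919), 0.12 with MK-8722 1 mpk (0.799) and -0.24 with MK-8722 10 mpk (0.654), and 0.11 for the enalapril interaction (0.995). Rescaling by median ratios gave in cortex -0.94 (0.067) with enalapril and -0.80 (0.0797) with MK-8722 10 mpk, and -0.56 (0.0527) for MK-8722 10 mpk in medulla, each against obese vehicle. Without a filter on low values, enalapril in cortex was -1.13 (0.0517).

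Fitting the compared groups alone gave in cortex -1.13 (0.0614) with enalapril and -1.01 (0.154) with MK-8722 10 mpk, and -0.75 (0.0825) for MK-8722 10 mpk in medulla, each against obese vehicle. It gave -0.75 (0.121) for 10 against 1 mpk in medulla, and for cortex against medulla -0.82 in obese vehicle (0.0509), -0.45 with MK-8722 1 mpk (0.0157) and -1.08 with MK-8722 10 mpk (0.05004). The exact permutation test gave p = 0.0952 for MK-8722 10 mpk in cortex (-1.01) and p = 0.0238 for MK-8722 1 mpk between tissues (-0.45). The number range as a term gave -0.82 (0.0835) for MK-8722 10 mpk in cortex and 0.11 (0.982) for the interaction of MK-8722 10 mpk against enalapril. The lower range alone, chosen after seeing the data, gave -0.87 (0.076) for MK-8722 10 mpk against obese vehicle and -1.04 (0.0565) for 10 against 1 mpk.

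The replicate block gave -0.015 (0.999) for MK-8722 1 mpk and -0.70 (0.0545) for MK-8722 10 mpk against obese vehicle in medulla, -0.68 (0.126) for 10 against 1 mpk there, and 0.15 (0.946) for the interaction of MK-8722 10 mpk against enalapril. In the pairs that met the pairing check it changed no call, at -0.94 (0.00222) for MK-8722 10 mpk in cortex and -1.05 (0.000781) between tissues. The block with relative depth, also chosen after seeing the data, gave -0.65 (0.244) for MK-8722 10 mpk in cortex and -0.35 (0.485) between tissues.

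Leaving out 1 library gave, in cortex, -1.40 to -0.99 for enalapril and -1.27 to -0.68 for MK-8722 10 mpk against obese vehicle, and -0.085 to 0.45 for MK-8722 10 mpk against enalapril. In medulla it gave -1.03 to -0.81 for enalapril, -0.085 to 0.14 for MK-8722 1 mpk and -0.86 to -0.59 for MK-8722 10 mpk against obese vehicle, and -0.86 to -0.59 for 10 against 1 mpk. For obese vehicle between tissues the range was -0.96 to -0.55. The interactions ranged from -0.53 to 0.07 for MK-8722 10 mpk against obese vehicle and from -0.29 to 0.25 against enalapril. The causes of these changes were not tested. Alternatives for the gene lists were not run, since no ID could be named, and absolute depth is unknown.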
